A study of Mus musculus with 3 samples.

Results

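Secreted Wnt antagonists, extracellular proteins that bind Wnt ligands or their co-receptors, and the related Dkk3 were followed through wound healing in mouse skin. The 7 genes were taken by symbol out of the 32285 genes in the files: *Sfrp1*, *Sfrp2*, *Sfrp4*, *Frzb*, *Wif1*, *Dkk2* and *Dkk3*. All 7 were present in each file. Excisional wounds had been made in the dorsal skin of adult male C57BL/6J mice, a wild-type strain shared by all groups, and wound tissue was taken at Day 3, Day 7 or Day 14 after injury. Each day was represented by 1 fresh frozen section, with no unwounded skin among the samples. The sections lay on Visium slides, where each spot captures polyadenylated RNA from several neighbouring cells and each captured molecule is counted once by its unique molecular identifier (UMI).

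Wnt ligands act by joining a Frizzled receptor to the co-receptors Lrp5 and Lrp6, which stabilises β-catenin and switches on target genes with TCF/LEF factors. Secreted frizzled-related proteins (Sfrp1, Sfrp2, Sfrp4 and Frzb, also called Sfrp3) carry a Frizzled-like domain and bind Wnt ligands, Wif1 binds Wnt ligands through a different domain, and Dickkopf proteins such as Dkk2 occupy Lrp5 and Lrp6. Dkk3 is a divergent member of the Dickkopf family whose effect on Wnt signalling depends on context. In skin, Wnt signalling drives hair follicle growth and takes part in dermal repair, and several of these antagonists are known products of dermal fibroblasts and of the dermal papilla, the mesenchymal core of the hair follicle.

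In the GENCODE M21 annotation of GRCm38, all 7 genes were protein coding. On plus strands, *Sfrp2* spans chr3:83766321-83774316, *Wif1* chr10:121033960-121100650 and *Dkk2* chr3:132085292-132180304. *Sfrp1* lies on chromosome 8, *Sfrp4* on chromosome 13, *Frzb* on chromosome 2 and *Dkk3* on chromosome 7. An antisense gene, *Gm26771*, overlaps *Sfrp2*, and no other member overlapped a gene. The bases just upstream of *Sfrp2*, *Wif1* and *Dkk2* are shown here, since Wnt target genes are bound through TCF/LEF words. RefSeq promoter windows (GRCm38.p6) were found for 4 of the 7 members, and 250 bases before the RefSeq start site were searched on both strands for the TCF/LEF words CTTTGAA and CTTTGAT and for the TATA word TATAAA. Capitals mark a match, and bases inside the GENCODE gene are left out.
Sfrp2, chr3:83766071-83766320, plus strand: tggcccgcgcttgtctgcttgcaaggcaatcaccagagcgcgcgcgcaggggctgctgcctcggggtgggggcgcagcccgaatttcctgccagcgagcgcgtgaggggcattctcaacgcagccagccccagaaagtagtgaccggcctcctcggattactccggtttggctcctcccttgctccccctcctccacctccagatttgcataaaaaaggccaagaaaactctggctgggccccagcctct
Wif1, chr10:121033754-121033959, plus strand: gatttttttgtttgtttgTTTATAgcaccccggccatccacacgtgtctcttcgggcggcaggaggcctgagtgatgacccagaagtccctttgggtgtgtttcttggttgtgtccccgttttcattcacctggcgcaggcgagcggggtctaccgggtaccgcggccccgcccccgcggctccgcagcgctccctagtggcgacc
Dkk2, chr3:132085042-132085291, plus strand: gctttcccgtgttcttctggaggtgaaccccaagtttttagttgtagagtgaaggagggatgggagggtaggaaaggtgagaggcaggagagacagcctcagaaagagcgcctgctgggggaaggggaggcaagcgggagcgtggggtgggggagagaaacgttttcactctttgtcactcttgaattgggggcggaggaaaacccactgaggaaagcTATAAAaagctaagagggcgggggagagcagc
No TCF/LEF word was in the 250 bases of any of the 4 members with a window, and 7.48% of the 32851 mouse promoter windows held one. The TATA word occurred in *Dkk2*, 32 bases before the start site on the plus strand, and in *Wif1*, 232 bases before it on the minus strand, whereas 12.4% of all windows held it on either strand. The upstream bases of *Sfrp2* held neither word. The 250 bases had a GC content of 63.6% in *Sfrp2*, 62.8% in *Wif1* and 55.6% in *Dkk2*.

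In day order, the sections covered 664, 549 and 697 spots, with 1772259, 4442962 and 4611723 UMIs. The Day 3 section was the shallowest, with a median of 1513 UMIs per spot against 6687 on Day 7 and 4827 on Day 14. Levels are pooled over all spots that tissue covered and given as CPM, the UMIs of a gene in 1000000 UMIs of the section. Intervals in parentheses are 95% counting intervals. They hold no variation between animals or sections, of which there was 1 per day, so no test between days was possible. Spots were not used as replicates of a day, but intervals of shares of spots treat the spots of 1 section as separate units. A ratio was called when it was at least 2-fold, its interval left out equality, and the gene had at least 50 UMIs over both pools. In pooled tissue, fewer cells of a type and less RNA per cell cannot be told apart.

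*Sfrp2* was lower at each later day. Its 560, 991 and 248 UMIs in day order gave 316 CPM (290.3 to 343), 223 CPM (209 to 237) and 53.8 CPM (47.3 to 60.9). The 3 intervals did not overlap. The level was 1.42-fold lower on Day 7 than on Day 3 (1.27 to 1.57), which was not called, and 4.15-fold lower on Day 14 than on Day 7 (3.61 to 4.79), which was called. From Day 3 to Day 14 it was 5.88-fold lower (5.05 to 6.85).

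*Sfrp1* went the other way. Its 70, 206 and 476 UMIs gave 39.5 CPM (30.8 to 49.9), 46.4 CPM (40.2 to 53.1) and 103 CPM (94.2 to 113). Days 3 and 7 overlapped, and Day 14 stood above both, 2.23-fold over Day 7 (1.89 to 2.63) and 2.61-fold over Day 3 (2.03 to 3.41). The call over Day 7 was lost with the mean of spot CPM (log2 ratio 0.99), and the call over Day 3 with all spots of the slide (0.96). *Sfrp4*, with 23, 104 and 66 UMIs, gave 13.0 CPM (8.23 to 19.5), 23.4 CPM (19.1 to 28.4) and 14.3 CPM (11.1 to 18.2). Its Day 7 level was 1.80-fold that of Day 3 (1.14 to 2.97), short of a call. *Frzb* was barely captured, with 3, 11 and 26 UMIs. Its levels of 1.69 CPM (0.349 to 4.95), 2.48 CPM (1.24 to 4.43) and 5.64 CPM (3.68 to 8.26) overlapped between neighbouring days, and it stayed below the minimum of 50 UMIs in each pair of days.

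*Wif1* was captured most on Day 14. Its 36, 64 and 326 UMIs gave 20.3 CPM (14.2 to 28.1), 14.4 CPM (11.1 to 18.4) and 70.7 CPM (63.2 to 78.8). Day 14 was 4.91-fold over Day 7 (3.74 to 6.52) and 3.48-fold over Day 3 (2.46 to 5.06), while Days 3 and 7 overlapped. Under tissue, the levels of *Dkk2* overlapped over the 3 days, at 22.6 CPM (16.1 to 30.7) from 40 UMIs, 18.7 CPM (14.9 to 23.2) from 83 UMIs and 17.8 CPM (14.1 to 22.1) from 82 UMIs. The ratio of Day 14 to Day 7 was 0.952 (0.693 to 1.31). A further 20, 194 and 56 *Dkk2* UMIs, in day order, lay outside the marked tissue and did not enter these levels. *Dkk3* peaked on Day 7. Its 43, 386 and 215 UMIs gave 24.3 CPM (17.6 to 32.7), 86.9 CPM (78.4 to 96.0) and 46.6 CPM (40.6 to 53.3). The 3 intervals were apart. Day 7 was 3.58-fold over Day 3 (2.61 to 5.03), which was called, and Day 14 was 1.86-fold below Day 7 (1.57 to 2.21), which was not.

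**Figure D1:**
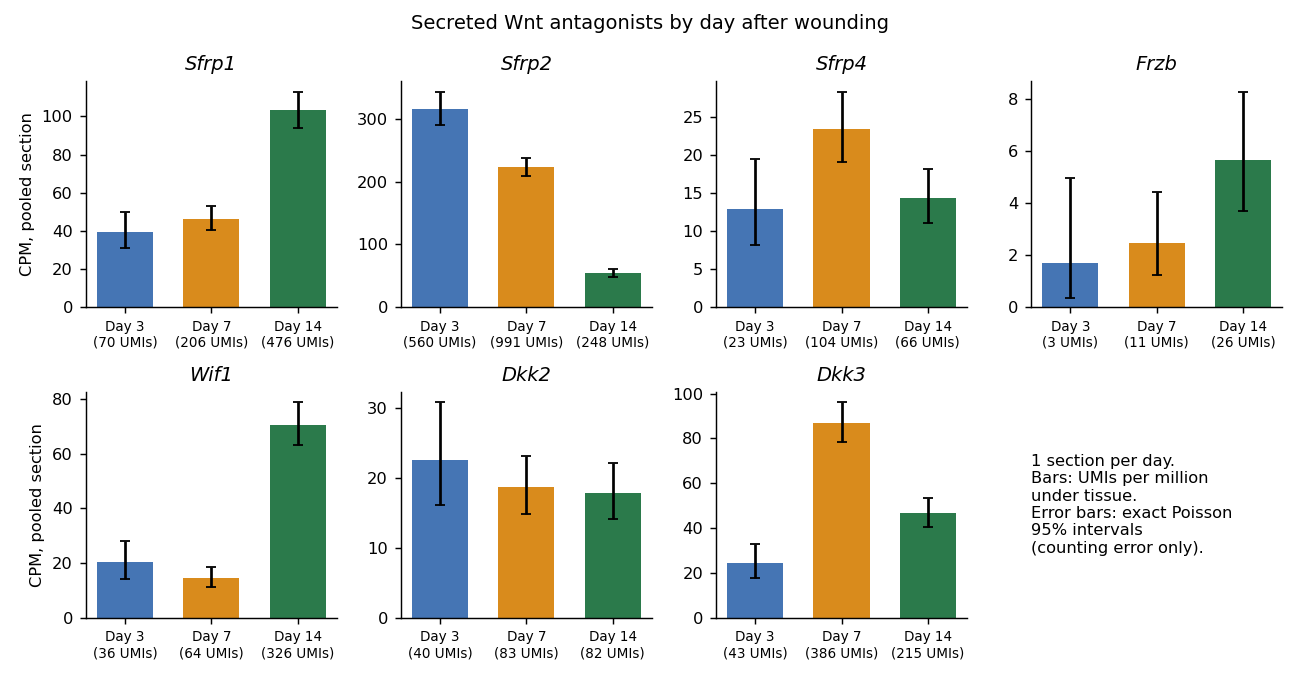
Level of each antagonist in CPM (vertical axes, from 0) for the section of each day (horizontal axes, with the UMIs of the gene). Bars are pooled values of 1 section, and error bars are exact Poisson 95% intervals: *Sfrp2* drops from 316 to 53.8 CPM, *Dkk3* peaks at 86.9 CPM on Day 7, and *Sfrp1* and *Wif1* reach 103 and 70.7 CPM on Day 14.

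Between Day 7 and Day 3, 1 of the 6 members with enough UMIs was called, *Dkk3*, which was higher. Of the 10541 genes counted in that pair, 7.95% were called higher and 6.49% lower. Between Day 14 and Day 7, 3 of 6 were called, *Sfrp1* and *Wif1* higher and *Sfrp2* lower, while 10.9% of the 11746 genes counted were called higher and 7.34% lower. The same 3 members were called between Day 14 and Day 3, against 14.2% of 10955 genes higher and 6.83% lower. The median log2 ratio of all genes counted was 0.04, 0.12 and 0.18 in the 3 pairs.

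The tissue caught in the sections differed between days, and these levels stood beside the members' own. A list of 10 fibroblast matrix genes, *Col1a1* and *Dcn* among them, summed to 51780, 73930 and 37840 CPM in day order. A list of 10 inner root sheath and hair shaft genes summed to 4.51, 4.73 and 5996 CPM, with 6 of its genes at 0 on Day 3 and 2 at 0 on Day 7. *Krt71* itself had 0, 1 and 6874 UMIs. The part of these shifts in the members' levels was not tested. Counted per UMI of the fibroblast list, *Sfrp2* was still lower on Day 14 than on Day 7 (log2 ratio -1.09, interval -1.29 to -0.88), and it was then also lower on Day 7 than on Day 3 (-1.02, -1.17 to -0.86), as was *Wif1* (-1.01, -1.62 to -0.38). The ratio of *Dkk3* between Day 14 and Day 7 became 0.07 (-0.18 to 0.31) on that scale. *Wif1* and *Sfrp1* remained higher on Day 14 than on Day 7, by 3.26 (2.87 to 3.67) and 2.12 (1.88 to 2.36). *Dkk2* was no longer level per fibroblast-list UMI, lower on Day 7 than on Day 3 (-0.79, -1.35 to -0.20) and higher on Day 14 than on Day 7 (0.90, 0.44 to 1.35). Both ratios of *Dkk2* were short of 2-fold.

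To place the members in the tissue, spots with at least 500 UMIs were ranked in each section by the share of 1 anchor gene, and the top 10% with at least 2 UMIs of that gene were set against the other spots. *Postn*, which encodes periostin, a matrix protein of granulation tissue, marked granulation spots. *Pi16*, a gene of adventitial and reticular fibroblasts in resting skin, marked resting dermis spots. *Krt71*, a keratin of the inner root sheath, marked hair spots on Day 14, the day with enough *Krt71* UMIs. The granulation groups had 29, 54 and 69 spots on Days 3, 7, and 14, the resting dermis groups 52, 41 and 69, and the hair group 69. On Day 14 granulation and resting dermis groups were not opposed and shared 8 spots. *Pi16* was 313 CPM in granulation spots against 262 CPM, and *Postn* 691 CPM in resting dermis spots against 543 CPM (log2 ratio 0.35, 0.11 to 0.58). On Day 7 *Pi16* was lower in granulation spots (-1.87, -2.39 to -1.40).

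*Sfrp2* was higher in granulation spots on all 3 days. On Day 3 it was 517 CPM (412 to 640.1) in the 29 spots and 296.5 CPM (270.3 to 324.5) elsewhere, a 1.74-fold difference (1.37 to 2.20) below the call. On Day 7 it was 393 CPM (353 to 436) against 179 CPM (165 to 193), a called ratio of 2.20 (1.93 to 2.51). On Day 14 it was 107 CPM (77.5 to 143) against 48.6 CPM (42.2 to 55.8), also called, at 2.20 (1.55 to 3.05). With the top 20% of spots the Day 14 difference was no longer called (log2 ratio 0.93; 0.99 with the mean of spot CPM), nor was the one of *Dkk3* below (0.86). The Day 7 call was lost with the granulation list in place of *Postn* (0.71) and without the 5 highest *Sfrp2* spots (0.94). *Dkk3* was 113 CPM (92.3 to 137) in the granulation spots of Day 7 and 80.2 CPM (71.1 to 90.1) elsewhere, which was not called, and 104 CPM (75.5 to 140.4) against 41.0 CPM (35.1 to 47.6) on Day 14, which was called at 2.54-fold (1.78 to 3.57).

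Per UMI of all genes, the other members were not called in granulation spots. *Dkk2* had 3 UMIs there on Day 14, or 7.27 CPM against 18.8 CPM (14.9 to 23.5) elsewhere, and *Sfrp1* was 67.9 CPM (45.1 to 98.1) against 107 CPM (97.1 to 117). On Day 3, only *Sfrp1* and *Sfrp2* had enough UMIs to be counted, and neither was called, beside 4.75% of 5637 genes called higher and 5.61% lower. On Day 7, 1 of 6 members was called higher, beside 1.42% of 9422 genes higher and 6.90% lower, and on Day 14 it was 2 of 6, beside 4.64% of 10029 genes higher and 3.45% lower. Fibroblast-list genes were themselves higher in granulation spots, at 96510 against 68120 CPM on Day 7 and 74300 against 34260 CPM on Day 14. Per UMI of that list, neither difference of *Sfrp2* met the call, with log2 ratios of 0.63 (0.44 to 0.82) and 0.02 (-0.49 to 0.49), and *Dkk3* on Day 14 fell short as well, at 0.23 (-0.29 to 0.72). On that scale other members met the call as lower in granulation spots. These were *Wif1* (-1.57, -2.95 to -0.44) and *Dkk2* (-1.42, -2.54 to -0.46) on Day 7, and *Sfrp1* (-1.77, -2.38 to -1.22), *Wif1* (-1.30, -1.94 to -0.72) and *Dkk2* (-2.49, -4.80 to -0.89) on Day 14.

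The resting dermis spots of Day 14 held 3 members in excess. *Sfrp4* was 73.5 CPM (42.8 to 118) in them and 11.2 CPM (8.28 to 14.8) elsewhere, a ratio of 6.56 (3.54 to 11.6) from 17 and 49 UMIs. *Dkk2* was 86.4 CPM (52.8 to 133) against 14.2 CPM (10.9 to 18.1), a ratio of 6.10 (3.49 to 10.2) from 20 and 62 UMIs. *Sfrp2* was 173 CPM (123 to 235) against 47.5 CPM (41.3 to 54.4), a ratio of 3.64 (2.53 to 5.12). The 69 spots held 5.02% of the UMIs in the section but 25.8% of those of *Sfrp4*, 24.4% of those of *Dkk2* and 16.1% of those of *Sfrp2*. All 3 calls were kept per UMI of the fibroblast list, where the log2 ratios were 2.30, 2.20 and 1.45. Of the 10029 genes counted, 1.86% were called higher and 2.84% lower.

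Resting dermis spots looked different on the earlier days. On Day 3, *Sfrp2* was 661 CPM (486 to 879) in them and 302 CPM (277 to 329.8) elsewhere, called at 2.19-fold (1.59 to 2.95) but not with the top 5% of spots (log2 ratio 0.93), beside 3.92% of 5637 genes called higher and 3.57% lower. *Sfrp4* had 4 UMIs in these spots and 17 elsewhere, 56.3 CPM (15.3 to 144) against 10.1 CPM (5.88 to 16.2), below the minimum for a call. On Day 7, no member was called, beside 1.28% of 9422 genes higher and 1.43% lower; *Sfrp2* was 217 CPM (158 to 292) against 223 CPM (209 to 238). With a list of 10 resting dermis genes in place of *Pi16*, however, *Sfrp2* was 563 CPM against 198 CPM on that day (log2 ratio 1.51, 1.26 to 1.75) and *Sfrp4* was 93.3 CPM against 18.4 CPM (2.35, 1.67 to 2.99). On Day 7 the 41 spots marked by *Pi16* had as few as 2 UMIs of it and held 28.9% of its UMIs in the section. The *Pi16* spots of Day 14 also had as few as 2 UMIs of it and held 35.5% of its UMIs. The lowest *Postn* count was likewise 2 UMIs in the granulation groups of Days 3 and 14.

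In the hair spots of Day 14, *Wif1* was 141 CPM (116 to 170.1) and 56.6 CPM (49.3 to 64.6) elsewhere, a called ratio of 2.49 (1.96 to 3.15). These spots held 33.4% of the *Wif1* UMIs and 16.8% of all UMIs. *Dkk2* was lower there, with 5 UMIs or 6.47 CPM (2.10 to 15.1) against 20.1 CPM (15.8 to 25.1), which was called at a log2 ratio of -1.63 (-3.30 to -0.35). That call was lost with the top 20% of spots (-0.30) and per UMI of the fibroblast list (-1.10). *Sfrp2* was 34.9 CPM (23.0 to 50.8) against 57.6 CPM (50.3 to 65.7), lower but not called. *Sfrp1* was 107 CPM (85.5 to 133) against 102 CPM (92.5 to 113) and *Dkk3* 44.0 CPM (30.5 to 61.5) against 47.2 CPM (40.6 to 54.6), so these 2 overlapped. Of 6 members counted, 1 was called higher and 1 lower, beside 2.96% and 2.55% of the 10029 genes. With 10 hair genes in place of *Krt71*, *Wif1* was 115 CPM against 61.1 CPM, a log2 ratio of 0.91 (0.55 to 1.26) that missed the call.

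**Figure D2:**
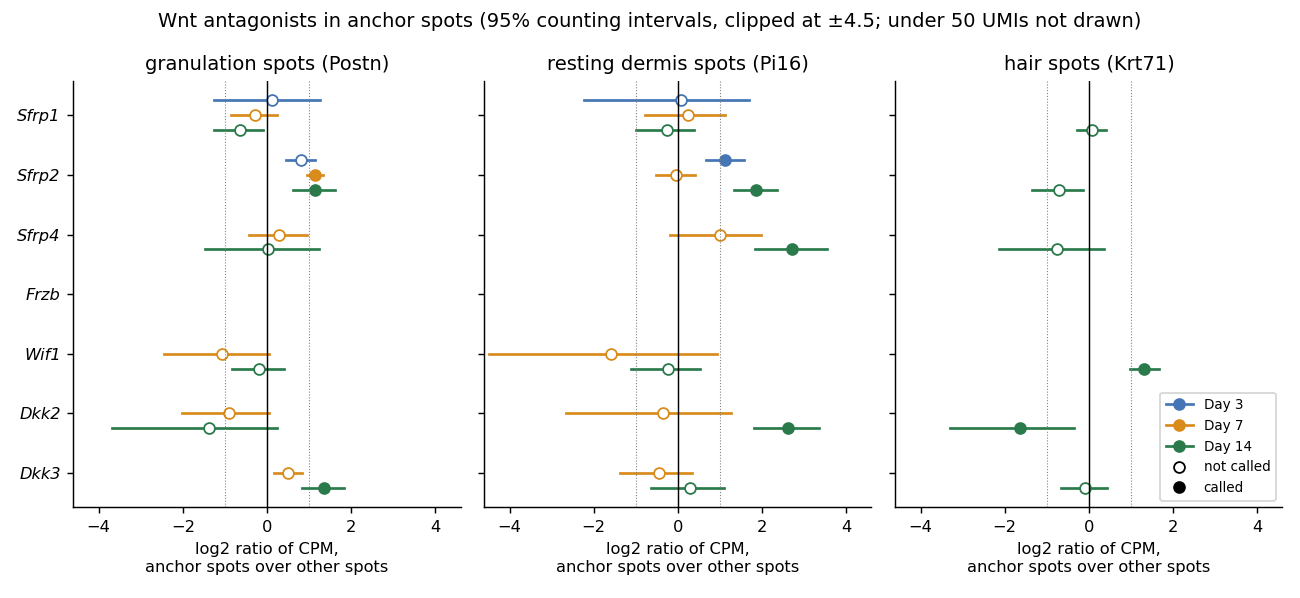
Log2 ratio of CPM between anchor spots and the other spots of the same section (horizontal axes) for each antagonist (vertical axis), with 95% counting intervals; filled points are called and dotted lines mark 2-fold. *Sfrp2* lies to the right in granulation spots on all 3 days, *Sfrp4* and *Dkk2* lie far to the right in resting dermis spots on Day 14 (2.71 and 2.61), and *Wif1* is right and *Dkk2* left in hair spots (1.32 and -1.63).

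Set directly against each other on Day 14, with the spots in both groups left out, the anchor groups separated some of the members. *Dkk2* had 1 UMI in 61 granulation spots and 18 in 61 resting dermis spots, or 2.62 CPM against 89.7 CPM (log2 ratio -5.10, -10.48 to -2.43). *Sfrp4* had 3 against 14 UMIs, or 7.86 CPM against 69.8 CPM (-3.15, -5.59 to -1.31). *Sfrp2* did not separate these 2 groups, at 89.1 CPM against 149.5 CPM (-0.75, -1.50 to 0.01). Between hair and granulation spots, *Wif1* was 143 CPM against 64.4 CPM (1.15, 0.52 to 1.82), *Dkk3* was 44.5 CPM against 107 CPM (-1.26, -1.95 to -0.58) and *Sfrp2* was 35.3 CPM against 109 CPM (-1.63, -2.37 to -0.90). On Day 3, *Sfrp2* was 517 CPM in granulation and 666.5 CPM in resting dermis spots, which overlapped (-0.37, -0.90 to 0.19), whereas on Day 7 it was 393 CPM against 216 CPM (0.86, 0.40 to 1.35).

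Levels around the anchor spots of Day 14 were read in rings of distance, in spot pitches (the spacing of neighbouring spots). *Wif1* was 141 CPM in hair spots, 71.6 CPM (59.7 to 85.1) within 2 pitches, 48.8 CPM (37.7 to 62.2) at 2 to 4 pitches and 33.5 CPM (21.4 to 49.8) beyond. *Sfrp1* was 107 CPM (85.5 to 133) in hair spots, 136 CPM (119 to 154) within 2 pitches, 80.4 CPM (65.9 to 97.1) at 2 to 4 pitches and 59.9 CPM (43.4 to 80.7) beyond. The hair-spot interval of *Sfrp1* thus overlapped those at 1 to 2 and 2 to 4 pitches and lay above the one beyond. *Sfrp2* was 34.9 CPM in hair spots and 69.3 CPM (57.7 to 82.7) in the ring next to them. Around resting dermis spots, *Dkk2* was 86.4 CPM inside, 26.9 CPM (18.8 to 37.3) within 2 pitches and 8.30 CPM (3.98 to 15.3) at 2 to 4 pitches, and *Sfrp4* was 73.5, 16.4 (10.3 to 24.9) and 9.96 CPM (5.15 to 17.4) in the same rings.

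**Figure D3:**
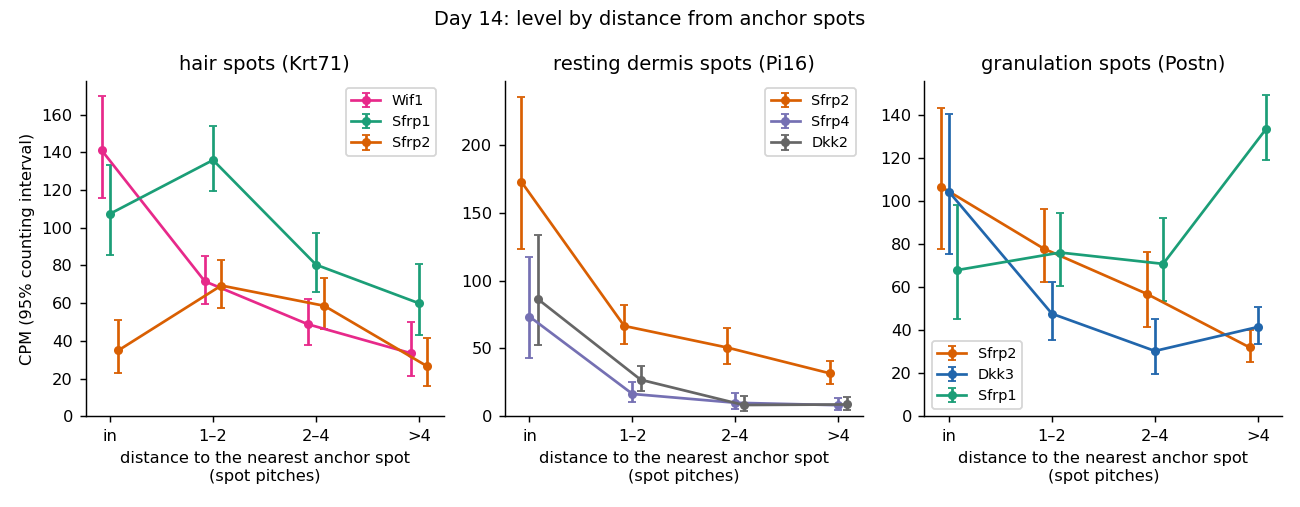
CPM on Day 14 (vertical axes, from 0) inside anchor spots and at 1 to 2, 2 to 4 and over 4 spot pitches from the nearest one (horizontal axes), with 95% counting intervals. *Wif1* declines from 141 to 33.5 CPM with distance from hair spots, *Sfrp1* is highest at 1 to 2 pitches from them, and *Dkk2* and *Sfrp4* decline within 4 pitches of resting dermis spots.

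The Day 14 levels of *Wif1* and *Sfrp1* were also taken without hair spots and the spots within 2 pitches of them, a setting chosen after the data were seen. In the 389 spots that were left, the hair list was 3152 CPM, *Wif1* was 43.4 CPM (34.9 to 53.4) and *Sfrp1* was 73.2 CPM (61.9 to 85.9). *Wif1* was still called over Day 7 (log2 ratio 1.59, 1.11 to 2.08) and over Day 3 (1.10, 0.52 to 1.70). *Sfrp1* was no longer called, at 0.66 (0.35 to 0.97) over Day 7 and 0.89 (0.47 to 1.32) over Day 3. *Sfrp2* was 47.3 CPM in these spots and stayed lower than on Day 7 (-2.24, -2.55 to -1.93).

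On Day 3, *Sfrp2* was gathered in a small area. A single spot held 64 of the 560 UMIs, the next held 27, and the 10 highest spots held 38.8% of them with 7.54% of all UMIs in the section. Those 10 spots lay a median of 1.52 pitches from their common centre. On Day 7 the highest spot held 38 UMIs and the 10 highest 20.3%, and on Day 14 no spot held more than 4 UMIs and the 10 highest held 13.7%. Without the 10 highest spots of each section *Sfrp2* was 209 CPM (188 to 233), 186 CPM (174 to 200) and 47.2 CPM (41.1 to 54.0), so Days 3 and 7 then overlapped and Day 14 remained below both. *Sfrp1* and *Wif1* on Day 14 had their highest spots at 19 and 9 UMIs, and the 10 highest held 22.3% and 19.3% of their UMIs, lying a median of 1.33 and 1.83 pitches from their centre.

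**Figure D4:**
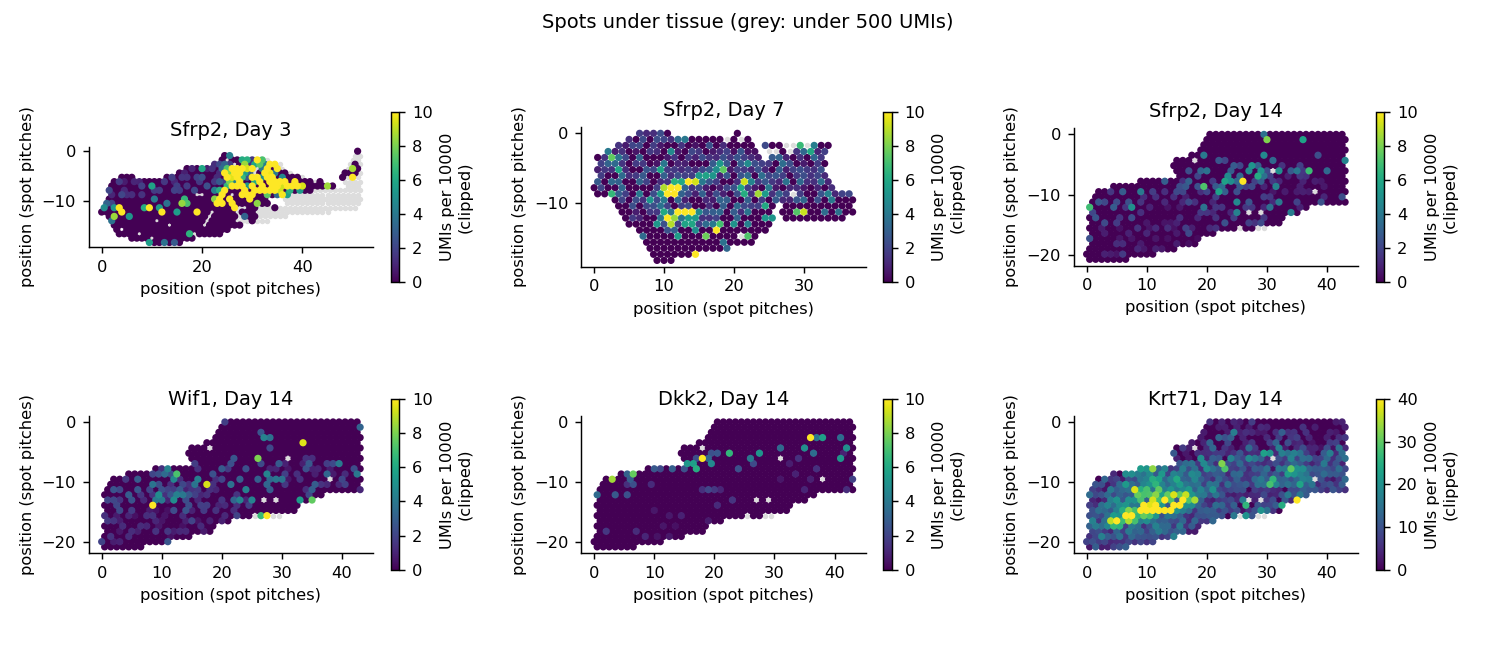
Spots under tissue at their positions on the slide (axes in spot pitches), coloured by UMIs of the gene per 10000 UMIs of the spot and clipped at the top of each scale; grey spots had under 500 UMIs. *Sfrp2* forms a dense patch on Day 3, smaller patches on Day 7 and scattered spots on Day 14, while on Day 14 *Dkk2* lies along 1 side of the section and *Wif1* overlaps the field of *Krt71*. That field is wide, with *Krt71* UMIs in 86.9% of the Day 14 spots under tissue.

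The name fibroblast antagonists was checked against marker lists of 10 genes, using the top 10% of spots for each list. On Day 7, *Sfrp2* was 438 CPM in spots high for the fibroblast matrix list and 168 CPM elsewhere (log2 ratio 1.38, 1.19 to 1.57), and on Day 14 it was 131 CPM against 45.3 CPM (1.54, 1.09 to 1.96). On Day 3 the order was turned, with 151 CPM in fibroblast-list spots and 352 CPM elsewhere (-1.22, -1.69 to -0.79). On that day *Sfrp2* was 1098 CPM in spots high for the granulation list and 201.5 CPM elsewhere (2.45, 2.20 to 2.69), and it was higher in spots of the neutrophil list (655 against 301 CPM). In macrophage-list spots *Sfrp2* was higher on all 3 days, at 546 against 292 CPM on Day 3 (0.90, 0.57 to 1.23), 434 against 185 CPM on Day 7 (1.23, 1.03 to 1.43) and 99.3 against 49.8 CPM on Day 14 (0.99, 0.45 to 1.5). Without its single highest spot, the Day 3 ratios were -1.05 (-1.52 to -0.61) for the fibroblast list and 2.17 (1.90 to 2.44) for the granulation list.

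*Dkk3* was higher in fibroblast-list spots on all 3 days, at 62.2 against 16.6 CPM on Day 3 (log2 ratio 1.91, 0.96 to 2.84), 114 against 80.1 CPM on Day 7 (0.51, 0.16 to 0.84) and 112 against 39.5 CPM on Day 14, with an interval that left out equality. The Day 3 value rested on 19 and 24 UMIs, below the minimum of 50 used for calls. *Dkk3* was also higher in macrophage-list spots on Day 14, at 102 against 41.8 CPM (1.29, 0.74 to 1.80). It was also higher in spots of the dermal papilla list on Day 7 (143 against 76.7 CPM). *Sfrp4* was higher in fibroblast-list spots on Day 14, at 30.7 against 12.5 CPM (1.29, 0.33 to 2.16), and in resting dermis list spots on all 3 days, with log2 ratios of 2.83, 2.35 and 3.08, the first from 5 and 16 UMIs, below the same minimum. *Sfrp1* was higher in fibroblast-list spots on Day 3, at 81.9 against 31.1 CPM (1.40, 0.63 to 2.14), and on Day 14 it was 89.8 against 105 CPM (-0.22, -0.72 to 0.24). On Day 14 *Sfrp1* was instead higher in spots of the sebaceous list (190.2 against 88.4 CPM; 1.11, 0.80 to 1.40) and of the hair list (156 against 91.8 CPM; 0.76, 0.46 to 1.06).

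By the fibroblast matrix list, *Dkk2* and *Wif1* were not higher in fibroblast spots on Days 7 and 14. *Dkk2* was lower in fibroblast-list spots on Day 7, at 4.46 against 22.3 CPM (log2 ratio -2.32, -4.23 to -0.91), and on Day 14, at 4.38 against 19.3 CPM (-2.14, -5.21 to -0.24). These spots held only 4 and 2 of its UMIs. In spots of the resting dermis list, which includes the fibroblast gene *Pi16*, *Dkk2* was higher on Day 14, at 74.8 against 14.7 CPM (2.35, 1.51 to 3.12). *Wif1* was lower in fibroblast-list spots on Day 14, at 46.0 against 73.4 CPM (-0.68, -1.39 to -0.04), but not without its 5 highest spots. Its Day 7 interval held equality (-0.82, -2.11 to 0.25). On Day 3 *Wif1* was higher there, at 39.3 against 16.6 CPM (1.25, 0.11 to 2.30) from 12 and 24 UMIs, below the minimum. In the dermal papilla list spots of Day 14, *Wif1* was 84.7 against 69.3 CPM and *Dkk2* 14.1 against 18.2 CPM, both with intervals that held equality. All 10 fibroblast genes had UMIs on each day, and of the dermal papilla genes *Corin* had 0 UMIs on Day 7.

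**Figure D5:**
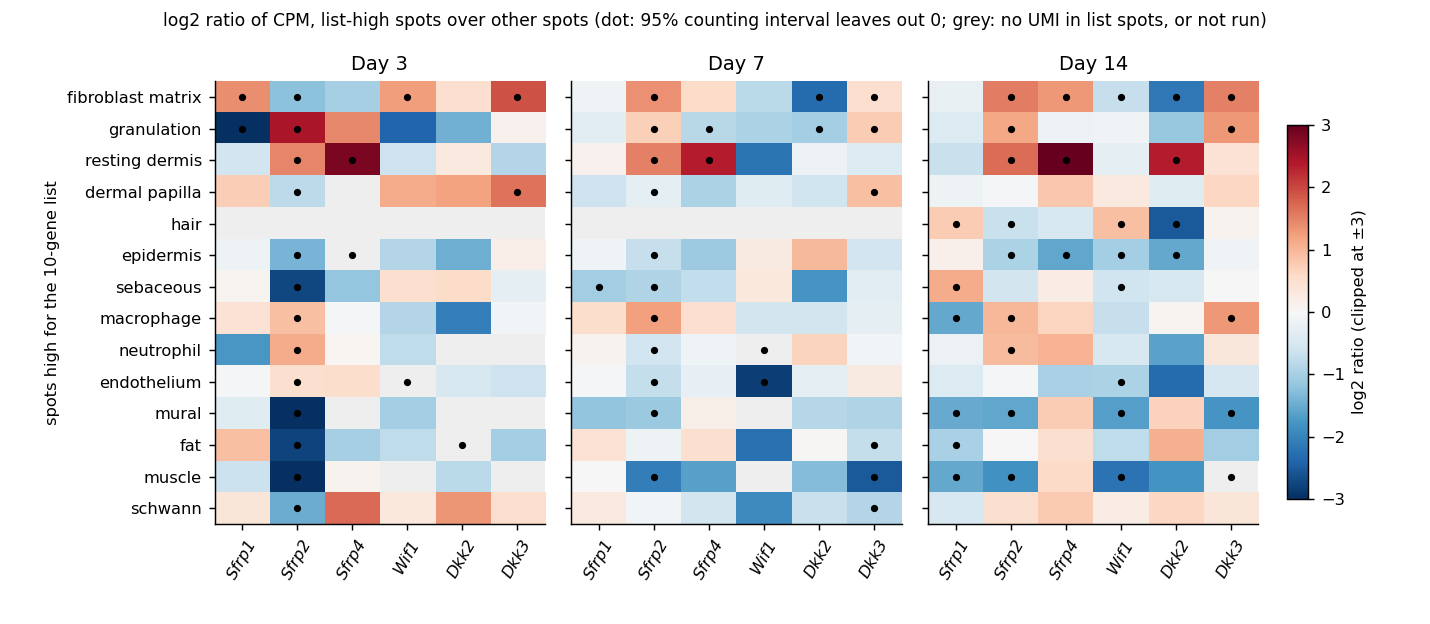
Log2 ratio of CPM between spots high for each marker list and the other spots (colour, clipped at 3 in either direction), by antagonist and day; dots mark counting intervals that leave out 0. *Sfrp2* turns from blue (-1.22) on Day 3 to red (1.38 and 1.54) in the fibroblast matrix row, and *Dkk2* is blue in that row on Days 7 and 14 but red (2.35) in the resting dermis row of Day 14.

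The members were sparse in single spots. After each spot was thinned to 1000 UMIs, *Sfrp2* was seen, in day order, in 17.6% of 426 (14.1 to 21.6), 15.8% of 525 (12.8 to 19.2) and 5.74% of 679 spots (4.12 to 7.77). Unthinned, the shares were 25.8%, 58.1% and 26.4%. In spots high for skeletal muscle genes, used as tissue that should lack it, the thinned shares were 2.63% of 38 (0.0666 to 13.8), 2.04% of 49 (0.0517 to 10.8) and 1.54% of 65 spots (0.0389 to 8.28). *Sfrp2* thus stood above the muscle interval on Days 3 and 7 and overlapped it on Day 14. Intervals of these shares treat the spots of 1 section as separate units and describe that section only. These muscle spots had median depths of 1400, 2291 and 2847 UMIs against 1987, 6795 and 4860 in all spots used. *Wif1* was seen in 6.19% of thinned spots on Day 14 (4.49 to 8.27) and 0.762% on Day 7 (0.208 to 1.94), and *Sfrp1* in 7.81% on Day 14 (5.90 to 10.1) and 3.62% on Day 7 (2.19 to 5.59). Both overlapped the muscle interval on each day, as did *Sfrp4*, *Frzb*, *Dkk2* and *Dkk3*. These thinned shares were thus not told apart from background at this depth. With all UMIs, levels in muscle spots were lower than elsewhere on Day 14 for *Sfrp1* (log2 ratio -1.53), *Wif1* (-2.21) and *Sfrp2* (-1.82). *Dkk3* was also lower there on Day 7 (-2.53) and Day 14 (0 against 48.65 CPM). These intervals left out equality. Those of *Sfrp1* and *Wif1* on Days 3 and 7, *Dkk3* on Day 3, and *Sfrp4*, *Frzb* and *Dkk2* on each day held it.

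For each member, the genes most alike were taken from the 3 highest Pearson correlations over spots in the section with most of its UMIs, among 6700 genes on Day 7 or 7412 on Day 14 with at least 100 UMIs. They describe spots of 1 section that share a library, and depth entered them. *Sfrp2* on Day 7 was most like the collagen genes *Col1a1* (r = 0.40) and *Col1a2* (r = 0.40) and *Sparc* (r = 0.39) over 539 spots, and its correlation with log depth was 0.36. *Dkk3* on the same day was most like *Lrrc17* (r = 0.32), *Sparc* (r = 0.32) and *Col3a1* (r = 0.31), about as strong as with depth (r = 0.32). *Sfrp4* was most like *Apbb1ip* (r = 0.28), *Tnxb*, a matrix gene of loose connective tissue (r = 0.24), and *Sfrp2* (r = 0.22). On Day 14, over 689 spots, *Sfrp1* was most like *Psapl1* (r = 0.30) and the basal keratin gene *Krt14* (r = 0.27), and its correlation with depth was 0.31. *Wif1* was most like the metallothionein gene *Mt2* (r = 0.28), *Gm49425* (r = 0.27) and *Krt71* (r = 0.26), with 0.19 for depth. *Dkk2* (*Limd1* and *Oat* among its highest) and *Frzb* (*Ap4m1*, *Urm1* and *Efnb1*) had no correlation above 0.20.

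The rest of the Wnt pathway was counted from fixed lists. Of 19 Wnt ligand genes, 10 had enough UMIs between Day 14 and Day 7, and 7 were called higher and 1 lower, with a median log2 ratio of 1.22 against 0.12 over all genes counted, of which 10.9% were called higher and 7.34% lower. In day order, *Wnt10b*, a ligand of growing follicles, was 1.69, 12.8 and 65.1 CPM. *Wnt4* was 19.2, 21.4 and 52.0 CPM, *Wnt10a* 16.4, 11.03 and 24.7 CPM, and *Wnt7b* 22.6, 5.40 and 15.2 CPM, the last being lower on Day 7 than on Day 3 (log2 ratio -2.06, -2.86 to -1.30). The ligand called lower on Day 14 was *Wnt9a*, at 24.3 CPM on Day 7 and 3.69 CPM on Day 14 (-2.72, -3.55 to -1.98), after 1.69 CPM on Day 3; it lies outside the rule for named genes and was chosen after its values were seen.

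Of 15 receptor genes, all were counted between Day 14 and Day 7, and 4 were called higher and 0 lower by the 2-fold rule, with a median log2 ratio of 0.55, beside 10.9% and 7.34% of all genes. *Fzd7*, a Frizzled receptor, was 23.1, 30.8 and 65.9 CPM on Days 3, 7, and 14. *Lrp6*, the co-receptor that Dkk2 occupies, was 70.5, 27.2 and 55.3 CPM, lower on Day 7 than on Day 3 (log2 ratio -1.37) and higher again on Day 14 (1.02, 0.70 to 1.35). *Fzd2* was 37.2, 110.5 and 73.7 CPM and *Ryk*, a Wnt co-receptor, 63.2, 89.6 and 131 CPM, neither called between Day 14 and Day 7. Among agonists, *Lgr4*, a receptor of R-spondins, was 21.4, 17.3 and 44.0 CPM and *Lgr5* was 9.03, 18.5 and 23.0 CPM.

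Among 14 target genes, 12 were counted between Day 14 and Day 7, with 6 called higher and 2 lower and a median log2 ratio of 0.91, beside the same 10.9% and 7.34% of all genes. The cyclin gene *Ccnd1*, among those called higher, was 106, 77.0 and 168.5 CPM. *Nkd2*, a feedback inhibitor, was 20.9, 36.7 and 56.8 CPM. It was called between Day 14 and Day 3 but not between Day 14 and Day 7 (log2 ratio 0.63, 0.34 to 0.92). The 2 targets called lower were *Twist1* (75.6, 129 and 60.3 CPM) and *Ccn4* (14.1, 80.6 and 24.9 CPM), both highest on Day 7. Of the 12 other Wnt antagonists, 7 were counted and 3 called higher, beside 10.9% of all genes: *Sostdc1* (12.4, 23.4 and 72.2 CPM), the Wnt deacylase gene *Notum* (3.39, 2.48 and 9.32 CPM) and *Kremen2*, a receptor for Dickkopf proteins (2.26, 3.15 and 7.81 CPM). In the hair spots of Day 14, *Notum* was 24.6 against 6.26 CPM (1.97, 1.02 to 2.90) from 43 UMIs, below the minimum of 50, *Nkd2* 102 against 47.7 CPM (1.10, 0.70 to 1.49) and *Sostdc1* 64.7 against 73.8 CPM (-0.19, -0.65 to 0.25).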

How the data were processed

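Visium libraries of 3 skin wound sections, 1 per day, were analysed. Per the submitters' processing notes, the authors ran Space Ranger 1.3.0 on build mm10. The deposited values are unnormalized UMI counts for 32285 genes and 4992 spots per slide, and the deposited position lists mark spots under tissue. The same 4992 barcodes occur in all 3 files because they are fixed slide positions. Groups came from the day in the labels.

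Spots under tissue were pooled to CPM with exact Poisson 95% intervals; ratios carry exact conditional binomial 95% intervals, and shares exact Clopper-Pearson ones. Those of CPM and ratios cover counting error only, and those of shares treat the spots of 1 section as separate units. Anchor and list spots needed at least 500 UMIs, and thinning was to 1000 UMIs (seed 1). Correlations used log1p of UMIs per 10000. Spots can hold several cells, so no doublet caller or cell-type makeup was used. The ratio intervals were tested on simulated data.

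The members and all lists were chosen with earlier results of these data known. Genes named were the 7 members, the 3 anchors, the 3 genes most alike for each member and, per Wnt list, up to 4 genes called between any pair of days, by UMIs. Some of the genes most alike are not reported here. Alternatives were other normalizations (TMM of edgeR 4.0.16, size factors of DESeq2 1.42.0), denominators, spot sets, thresholds, thinning and rank correlation. Positions came from GENCODE M21, which held 32158 of the gene identifiers. Python 3.11.15, numpy 2.4.6, scipy 1.17.1, pandas 2.3.3, matplotlib 3.10.9 and R 4.3.3 were used.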

Additional observations from a re-analysis of the deposited data

Results flagged for a closer look

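Some members had ratios of opposite sign in the same kind of spot on different days. With 1 section per day, the difference between days was not tested. *Sfrp2* in fibroblast-list spots had log2 ratios of -1.22, 1.38 and 1.54 in day order. *Sfrp2* in neutrophil-list spots had 1.12, -0.57 and 0.96, and in endothelium-list spots 0.48, -0.72 and -0.05. The neutrophil list itself summed to 2393, 216.5 and 145.9 CPM in day order. *Wif1* in fibroblast-list spots had 1.25, -0.82 and -0.68, and *Sfrp1* in sebaceous-list spots had 0.09, -1.05 and 1.11. Without the 5 highest *Wif1* spots the Day 14 value of *Wif1* was -0.52 with an interval that held 0 (-1.24 to 0.12).

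Spots beyond the marked tissue, absent from the comparisons, also held UMIs of the members. On Days 3, 7 and 14 these were 82.8, 93.1 and 38.8 CPM for *Sfrp2*, 39.9, 25.2 and 51.8 CPM for *Sfrp1*, 25.8, 11.2 and 11.2 CPM for *Sfrp4*, and 5.87, 2.01 and 3.82 CPM for *Frzb*. *Wif1* had 11.7, 10.2 and 37.5 CPM there, *Dkk2* 11.7, 30.0 and 11.9 CPM, and *Dkk3* 14.7, 33.8 and 29.1 CPM. *Dkk2* on Day 7 had 194 UMIs outside and 83 under the marked tissue, higher outside by a log2 ratio of 0.69 (0.31 to 1.07), and *Sfrp4* on Day 3 had 44 outside and 23 under, higher by 0.99 (0.23 to 1.79). *Pi16* on Day 7 was likewise higher outside, at 176 against 130 CPM (0.44, 0.29 to 0.58).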

How the results depend on the processing

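No paired analysis was possible because each day had 1 section. Of 159 values of the 16 member calls recomputed under the alternatives, 136 were still called and 1 changed sign, *Dkk2* in hair spots after thinning (log2 ratio 0.78 in place of -1.63). The alternatives with no minimum of UMIs and with 1.5-fold only loosen the rule, so every called member stays called under them by construction. Of 99 recomputed counts of called members, 75 were within 1.5 times the reported count. Between Day 7 and Day 3 the count of 1 became 2 with spots of at least 1000 UMIs, 2 at 1.5-fold and 3 per UMI of the fibroblast list (*Dkk3* higher, *Sfrp2* and *Wif1* lower). Between Day 14 and Day 7 the count of 3 became 5 at 1.5-fold. In granulation spots, the Day 3 count of 0 became 1 with the top 5% or the top 20% of spots, 1 after thinning, 1 at 1.5-fold and 2 with the marker list. The Day 7 count of 1 (*Sfrp2* higher) became 3 with the top 20% of spots (*Wif1* and *Dkk2* lower as well) and 2 with the mean of spot CPM (*Dkk2* lower as well). Per UMI of the fibroblast list it became 2 with other members, *Wif1* and *Dkk2*, both lower, and the Day 14 count of 2 became 0 with the top 20% of spots and 0 after thinning. Per UMI of the fibroblast list the Day 14 count was 3, with *Sfrp1*, *Wif1* and *Dkk2* lower in place of *Sfrp2* and *Dkk3* higher. In resting dermis spots, the Day 3 count of 1 became 0 with the top 5% of spots and 2 with no minimum of UMIs, the Day 7 count of 0 became 2 with the marker list, 1 after thinning and 1 with the mean of spot CPM, and the Day 14 count of 3 became 0 after thinning. In hair spots the count of 2 became 1 with the top 20% of spots, 1 with the marker list, 1 per UMI of the fibroblast list and 0 after thinning. Thinning removes most UMIs and so leaves few members above the minimum; the cause of the other shifts was not tested. With 1 section per day, the depth of Day 3 limits what could be counted there.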
